A study of Danio rerio with 20 samples.

Results

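Zebrafish T-lineage leukemias labelled self-renewal high were divided into tumors that held more myeloid transcripts and tumors that held fewer, and the 2 sets were compared across all genes. The myeloid-rich set has tumors 13.1.1, 14.1.1.1 and 15.2 (5 libraries), and the myeloid-poor set has tumors 2.1, 4.3.1, 7.2.1, 8.3 and 8.4.1.1.1 (9 libraries). Every title in the myeloid-rich set has a higher leading number than any title in the myeloid-poor set. What that number tracks is not stated, and it cannot be told apart from the split by myeloid transcripts. The sets were chosen by measured values, the levels of neutrophil and macrophage genes in these same libraries, so the levels of those genes are given as a description with no test. Together the sets hold 14 of the 20 libraries and 8 of the 11 tumors of the series. The other 3 tumors, 9.2, 10.2 and 12.2 (6 libraries), are labelled self-renewal low and took no part in the choice.

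All groups share the fish strain CG1, the cell type label blood and the source leukemia cells. The RNA was polyA RNA of bulk tumors sequenced on an Illumina HiSeq. Self-renewal capacity is the ability of leukemia cells to start a new leukemia. The labels give no transgene, age or treatment. Nothing in them ties a tumor to its own fish, so that a p-value covers only the spread from tumor to tumor. The kinship of 8.3 with 8.4.1.1.1, both titled with an initial 8, is not stated. The tests counted these tumors as independent, and if they are related a p-value misstates that spread. The series text counts 6 high and 5 low tumors, whereas the sample labels give 8 and 3, and the labels were followed. The shallowest high tumor, 14.1.1.1, had 11573276 counts and the deepest, 8.3, had 32466048, and tumors 14.1.1.1 and 8.4.1.1.1 have 1 library each where the others have 2. All 8 high tumors carried T-cell transcripts: the mean log2 CPM (CPM, read counts scaled to library size) over a list of 31 T-cell genes was 6.36, 5.62 and 5.94 in the myeloid-rich tumors 13.1.1, 14.1.1.1 and 15.2, and between 5.61 and 5.96 in the myeloid-poor tumors. It was -0.15, 0.99 and 3.96 in the low tumors 9.2, 10.2 and 12.2.

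Neutrophils and macrophages are the main phagocytes of zebrafish blood and blood-forming tissue. Neutrophils carry granules with lysozyme and peroxidase. Macrophages depend on signals through the colony-stimulating factor 1 receptor, make complement C1q and digest engulfed cells in lysosomes. A bulk leukemia sample holds RNA of any such host cells beside that of the leukemia cells. In bulk RNA, more cells of a type cannot be told apart from more RNA per cell.

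By its median, the excess that defines the myeloid-rich set was larger for the macrophage list than for the neutrophil list. All 38 measured genes of the macrophage list had a positive log2 fold change (myeloid-rich over myeloid-poor), with a median of 2.31, and in 15 of them every myeloid-rich tumor lay above every myeloid-poor tumor (2.88% of genes outside the myeloid lists did so). Of 29 measured neutrophil genes, 19 had a positive log2 fold change, with a median of 0.57 (1.08 without tumor 8.3), and 7 did not overlap between the sets. These values chose the sets and support nothing. The mean log2 CPM over the macrophage list was 3.27, 1.78 and 3.61 in the myeloid-rich tumors 13.1.1, 14.1.1.1 and 15.2. It was 1.61, 1.18, 0.10, -0.33 and 0.73 in the myeloid-poor tumors 2.1, 4.3.1, 7.2.1, 8.3 and 8.4.1.1.1, which is the order of tumors used for the values of both sets from here on. Tumors 13.1.1 and 15.2 stood well above the rest, and tumor 14.1.1.1, just inside the set, lay close to tumor 2.1, just outside it.

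Individual macrophage genes differed in whether tumor 14.1.1.1 lay above the myeloid-poor tumors. The gene csf1ra (ENSDARG00000102986), the receptor of colony-stimulating factor 1, had log2 CPM of 4.15, 2.75 and 4.86 in the myeloid-rich tumors, against 1.77, 1.9, 0.57, -0.52 and 0.84 in the myeloid-poor tumors. For c1qa (ENSDARG00000044613), a chain of complement C1q, the levels were 3.69, 1.71 and 4.50 in the myeloid-rich tumors, against 2.56, 1.7, 0.35, -1.22 and 0.97 in the myeloid-poor tumors. The sets did not overlap for csf1ra and did overlap for c1qa, where tumor 14.1.1.1 lay below tumor 2.1. The scavenger receptor gene marco (ENSDARG00000059294) also overlapped, with tumor 14.1.1.1 below 3 of the 5 myeloid-poor tumors: it had 5.03, 2.49 and 5.10 in the myeloid-rich tumors and 3.36, 2.93, 1.48, 0.08 and 2.57 in the myeloid-poor tumors. The chemokine receptor gene cxcr3.2 (ENSDARG00000041041), with 2.2, 1.43 and 3.15 in the myeloid-rich tumors against at most 0.02 in any myeloid-poor tumor, did not overlap. Genes csf1ra, c1qa and cxcr3.2 were chosen, like c1qb, cybb and npsn below, after their values were seen. Among the 38 macrophage genes, tumor 14.1.1.1 had the lowest value of the 3 myeloid-rich tumors in 37, and tumor 15.2 the highest of all 8 tumors in 25.

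Neutrophil list genes were divided: 7 of 29 did not overlap, and the others did. The oxidase subunit gene cybb (ENSDARG00000056615) did not overlap, with 2.98, 1.64 and 3.50 in the myeloid-rich tumors and at most 0.42 in any myeloid-poor tumor. Its SD over the high tumors was 1.42, and 0.42 once the macrophage list mean was subtracted. With the log2 of the summed neutrophil list subtracted instead, the SD was 1.67. The cells that cybb came from were not tested. The granule genes lyz and npsn overlapped. Lysozyme, lyz (ENSDARG00000057789), had log2 CPM of 2.11, 1.95 and 3.45 in the myeloid-rich tumors, against 1.57, 1.88, 1.05, 2.10 and 2.30 in the myeloid-poor tumors. The protease gene npsn (ENSDARG00000010423) had 2.76, 1.85 and 3.27 in the myeloid-rich tumors, against 1.45, 2.04, 0.86, 1.99 and 2.53 in the myeloid-poor tumors. Both genes were high in tumor 15.2 and low in tumor 7.2.1, and tumor 14.1.1.1 lay among the myeloid-poor tumors in both. In lyz tumor 13.1.1 (2.11) did so too, below tumor 8.4.1.1.1 (2.30). The myeloperoxidase gene mpx was not matched to an identifier of the table. The neutrophil list mean, 3.50, 3.06 and 3.32 in the myeloid-rich tumors and 2.30, 2.11, 2.19, 2.93 and 2.14 in the myeloid-poor tumors, rested in part on genes that other cells are also known to express. One, which did not overlap, is the arginase gene ARG2 (ENSDARG00000039269), with 8.72, 10.28 and 8.22 in the myeloid-rich tumors and 7.18, 7.45, 5.93, 7.17 and 7.48 in the myeloid-poor tumors. Another is the transcription factor gene CEBPB (ENSDARG00000042725), which was highest in myeloid-poor tumor 8.3 (10.61) and lowest in myeloid-rich tumor 15.2 (5.27). The rest of the 6 most abundant list members were mmp25b, LECT2, srgn and mcl1b. Their log2 fold changes were 1.05, 0.13, -0.05 and -0.62, and the sets overlapped in each.

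The order of the tumors depended on how myeloid level was measured. As summed CPM, which a few abundant genes dominate, the macrophage list gave 1040, 319 and 1070 in the myeloid-rich tumors, against 347, 322, 197, 351 and 221 in the myeloid-poor tumors. By that measure tumor 14.1.1.1 lay below 3 of the 5 myeloid-poor tumors. Tumor 8.3, lowest by the list mean, was the highest of the myeloid-poor tumors by the sum, with 6.80 for the lysosomal protease gene CTSB (ENSDARG00000055120) and 6.94 for CD63 (ENSDARG00000025147), a tetraspanin of lysosomes, both in log2 CPM. Summed CPM of the neutrophil list was 1220, 2110 and 670 in the myeloid-rich tumors, against 472, 478, 706, 2580 and 575 in the myeloid-poor tumors, where tumor 8.3 exceeded all. By library, the macrophage list means were 3.6 and 2.98 for 13.1.1, 3.48 and 3.78 for 15.2, and 1.64 and 1.73 for 2.1. Tumor 14.1.1.1 had 1.85 in its 1 library. Library values were scaled over all 20 libraries and tumor values over the 8 high tumors, so this value differs from the 1.78 given by tumor. The libraries of 13.1.1 lay further apart than the gap of 0.16 between the sets in the list mean by tumor.

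**Figure D1:**
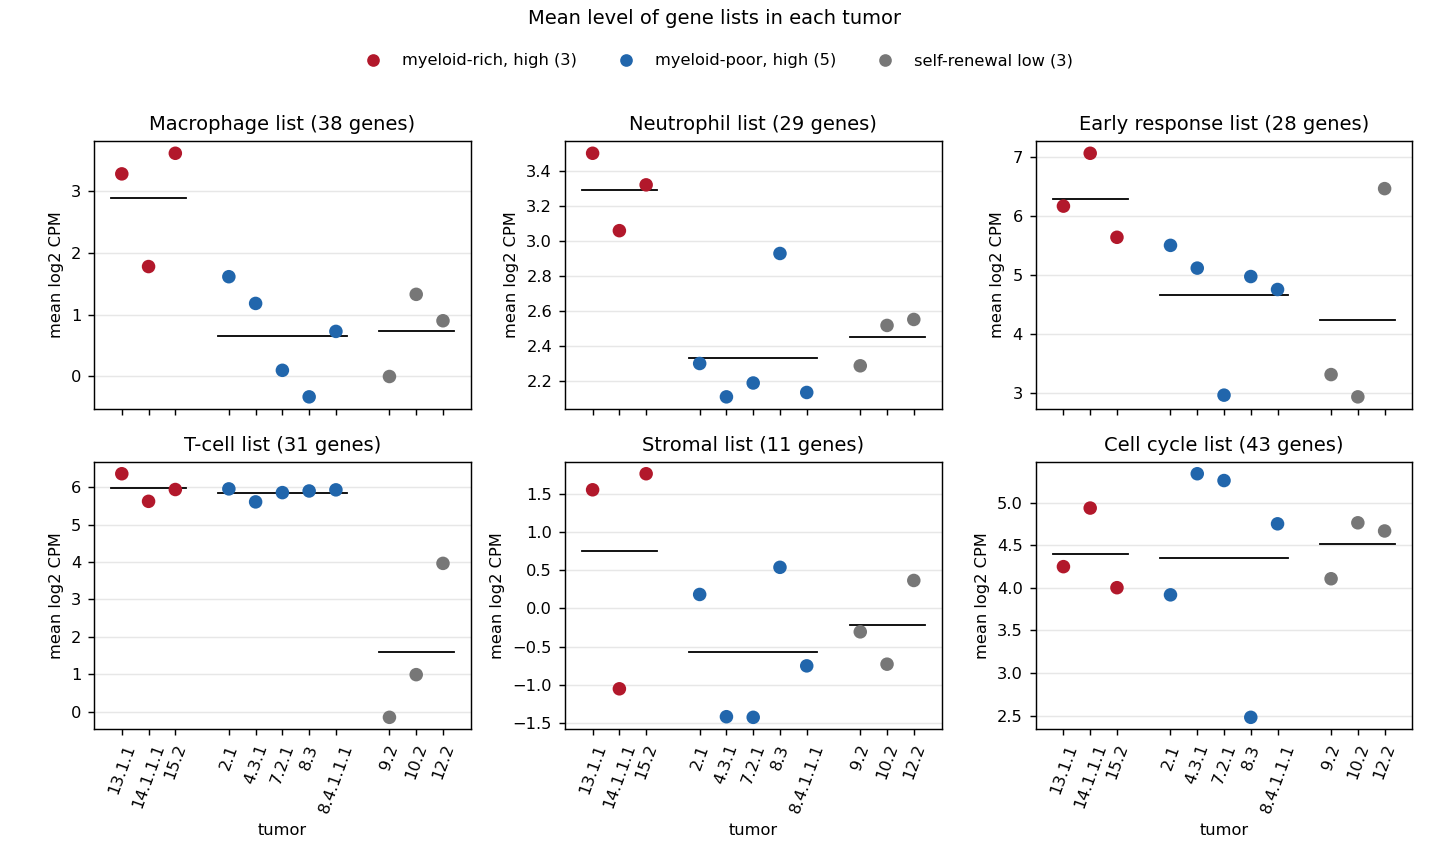
Mean log2 CPM (y axis) of 6 gene lists in each tumor (x axis), with the 3 myeloid-rich tumors in red at the left, the 5 myeloid-poor tumors in blue and the 3 self-renewal low tumors in grey; horizontal lines are group means. The macrophage list is highest in tumors 15.2 and 13.1.1 (3.61 and 3.27), the early response list in tumor 14.1.1.1 (7.07), and the T-cell list lies between 5.61 and 6.36 in all 8 high tumors.

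Some pairs of myeloid genes kept closer ratios than others. Over the 8 high tumors, the log2 difference between lyz and npsn had an SD of 0.29, and that between c1qa and c1qb, another C1q chain, also 0.29. The difference between c1qa and csf1ra had an SD of 0.55, whereas the difference between lyz and csf1ra had an SD of 1.51, from -2.04 in tumor 13.1.1 to 2.62 in tumor 8.3. Genes of 1 list did not all keep such ratios: CEBPB had 5.27 in tumor 15.2 and 10.61 in tumor 8.3, where lyz had 3.45 and 2.10. The pairs were chosen after the values were seen, describe 8 tumors and share the scaling of each library.

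**Figure D2:**
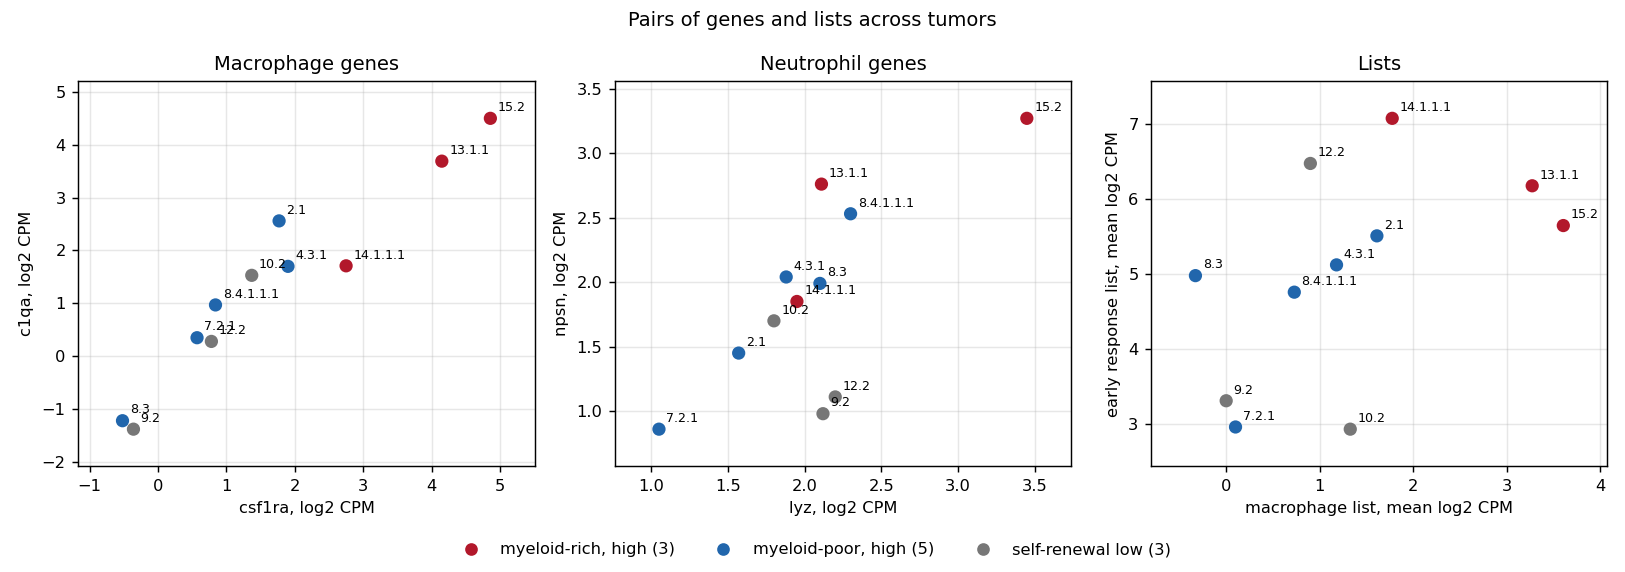
Log2 CPM of c1qa against csf1ra (left) and of npsn against lyz (middle), and the mean log2 CPM of the early response list against that of the macrophage list (right), with 1 point per tumor (red myeloid-rich, blue myeloid-poor, grey self-renewal low). Tumors 15.2 and 13.1.1 stand apart in the macrophage genes. Tumor 14.1.1.1 lies within the myeloid-poor range in lyz and npsn, and tumor 13.1.1 in lyz. Tumors 14.1.1.1 and 12.2 (7.07 and 6.47) are highest in the early response list with macrophage list means of 1.78 and 0.90.

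The genome-wide comparison asked which transcripts other than the myeloid ones differed between the sets. Of 15149 genes tested outside the myeloid lists, 0 were called higher (0%) and 0 lower (0%) in the myeloid-rich tumors at a Benjamini-Hochberg adjusted p under 0.05 in edgeR's quasi-likelihood test. The smallest adjusted p was 0.271. At an unadjusted p under 0.05, 668 genes were on the higher side (4.41% of genes) and 271 on the lower side (1.79%). Every myeloid-rich tumor lay above every myeloid-poor tumor in 437 genes (2.88%) and below in 312 genes (2.06%). DESeq2 on the same sums called 132 genes higher (0.871%) and 23 lower (0.152%), and limma-voom called 0 in each direction. All 155 genes called by DESeq2 had an unadjusted edgeR p under 0.05, and 137 of them did not overlap between the sets. The genes named below therefore rest on the tool used, and genes carried by the same cells as the myeloid transcripts are not independent of how the sets were chosen. Leaving out 1 tumor at a time gave between 525 and 834 genes on the higher side at an unadjusted p under 0.05 and between 155 (without tumor 15.2) and 441 (without tumor 8.3) on the lower side.

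The 2 sides differed in the level and the size of ratio of the genes they held. The 668 genes on the higher side had a median log2 fold change of 2.08 and a median level of 0.99 log2 CPM, and 344 of them (51.5%) differed by 4-fold or more. The 271 genes on the lower side had a median log2 fold change of -0.69 and a median level of 5.60 log2 CPM, and 46 of them (17%) differed by 4-fold or more. Over all 15149 genes the median level was 3.69 log2 CPM, and 4.1% differed by 4-fold or more. Genes on the higher side were thus mostly scarce transcripts with large ratios, and genes on the lower side mostly abundant ones with small ratios. The genes were picked by p, and scarce genes reach a small p only with large ratios. The mean level also includes 5 myeloid-poor tumors, in which genes of the higher side are low by that choice. How far the choice by p and the filter on low counts set this contrast was not tested.

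**Figure D3:**
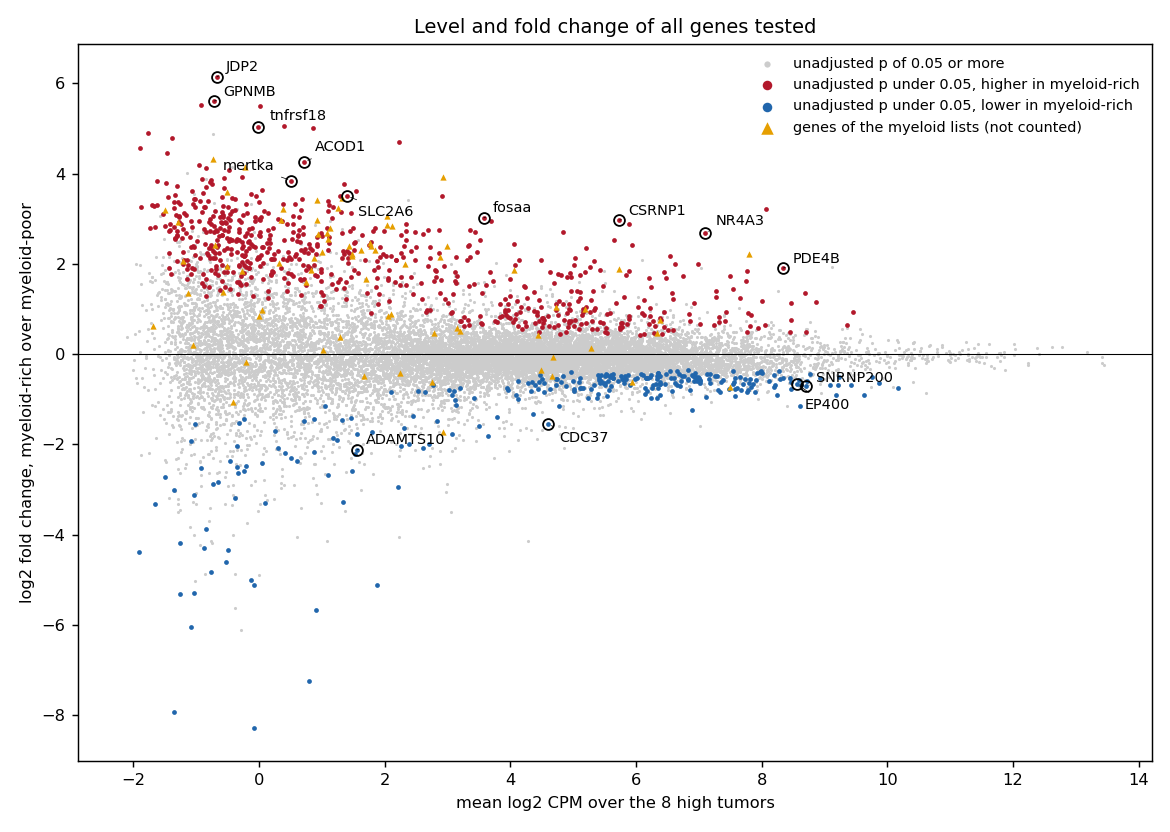
Log2 fold change, myeloid-rich over myeloid-poor (y axis), against mean log2 CPM over the 8 high tumors (x axis) for 15221 genes. Red and blue points have an unadjusted p under 0.05, and grey points do not. Orange triangles are genes of the myeloid lists, which are not counted. Red points crowd at low levels with large ratios (median 2.08 at a median level of 0.99), and blue points at higher levels with small ratios (median -0.69 at 5.60).

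The 10 genes with the smallest p on the higher side are described first, leaving out clone and locus names and levels under 1 log2 CPM. None was called by edgeR. All 10 were called higher by DESeq2 (0.871% of genes outside the myeloid lists were), and in all 10 the sets did not overlap (2.88%). A pick by p in the same data favours DESeq2 calls, separated sets and a small spread within a set, so these add no support. The smallest p belonged to PDE4B (ENSDARG00000032868), an enzyme that breaks down cyclic AMP, with log2 CPM of 10.01, 9.57 and 8.92 in the myeloid-rich tumors, against 7.65, 7.91, 7.63, 7.40 and 7.67 in the myeloid-poor tumors. Its level was 758 ± 275 CPM (SD, n = 3) in the myeloid-rich and 202 ± 25.5 CPM (SD, n = 5) in the myeloid-poor tumors, a log2 fold change of 1.91 ± 0.25 (SE; edgeR adjusted p = 0.271; DESeq2 adjusted p = 4.29e-07). The myeloid-poor tumors held nearly one level of PDE4B, and the myeloid-rich tumors were spread above it.

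Of these 10 genes, mertka (ENSDARG00000074695), MMP14 (ENSDARG00000008388) and rin1a (ENSDARG00000079095) were higher in tumors 13.1.1 and 15.2 than in tumor 14.1.1.1. The phagocyte receptor gene mertka, whose mammalian product takes part in the uptake of dying cells, had 3.37, 1.18 and 3.52 in the myeloid-rich tumors, against 0.22, -0.41, -0.84, -2.01 and -0.94 in the myeloid-poor tumors (log2 fold change 3.85 ± 0.72, edgeR adjusted p = 0.334). The membrane metalloproteinase gene MMP14 had 4.68, 1.60 and 4.08 in the myeloid-rich tumors, against 0.07, 0.40, 0.49, 0.73 and 0.26 in the myeloid-poor tumors (3.61 ± 0.59, edgeR adjusted p = 0.334). Among the myeloid-poor tumors, the MMP14 levels lay close together, between 0.07 in 2.1 and 0.73 in 8.3, on 141 counts. The macrophage list mean there was highest in 2.1 and lowest in 8.3, an order that mertka shared and MMP14 did not. The cells these transcripts came from were not tested. The gene rin1a, a regulator of Ras and Rab signalling, had at least 1.13 in the myeloid-rich tumors and at most -0.59 in the myeloid-poor tumors. The lysosomal hexose transporter gene SLC2A6 (ENSDARG00000058731) had 3.30, 3.64 and 4.07 in the myeloid-rich tumors and between -1.44 and 1.08 in the myeloid-poor tumors.

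Other genes among the 10 were highest in tumor 14.1.1.1. CSRNP1 (ENSDARG00000038429), a nuclear protein gene, had 7.38, 8.62 and 6.32 in the myeloid-rich tumors, against 4.86, 5.35, 4.06, 4.71 and 4.58 in the myeloid-poor tumors (log2 fold change 2.97 ± 0.48, edgeR adjusted p = 0.334). ACOD1 (ENSDARG00000069844), whose product makes itaconate in activated mammalian macrophages, had 1.88, 4.49 and 2.72 in the myeloid-rich tumors, against -0.27, -0.90, -1.07, -1.13 and 0.04 in the myeloid-poor tumors (4.27 ± 0.66, edgeR adjusted p = 0.334). JDP2 (ENSDARG00000040137), a partner of Jun proteins, had 300 counts over the myeloid-rich tumors and 8 over the myeloid-poor tumors, and levels of 1.85, 3.31 and 2.46 in the myeloid-rich tumors, against -1.40, -2.82, -3.35, -2.96 and -2.45 in the myeloid-poor tumors (6.15 ± 0.96, edgeR adjusted p = 0.334). The lowest of these levels rest on the prior count of 2, so the ratio of JDP2 is uncertain. SLC25A33 (ENSDARG00000039931), a mitochondrial nucleotide carrier gene, was also highest in tumor 14.1.1.1, with 5.63, 7.06 and 5.85 in the myeloid-rich tumors and between 4.02 and 4.82 in the myeloid-poor tumors. The costimulatory receptor gene tnfrsf18 (ENSDARG00000076800), known from T cells in mammals, was highest in tumor 13.1.1, with 4.15, 3.07 and 0.52 in the myeloid-rich tumors and -0.73, -1.87, -1.20, -1.56 and -2.45 in the myeloid-poor tumors.

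The self-renewal low tumors were not used to choose the sets. CSRNP1 had 4.75, 4.96 and 8.13 in tumors 9.2, 10.2 and 12.2, so that tumor 12.2, with a macrophage list mean of 0.90, came close to tumor 14.1.1.1. For mertka the low tumors had -0.92, -0.03 and -1.3, within the myeloid-poor range. GPNMB (ENSDARG00000062688), a lysosomal glycoprotein gene known from macrophages that was chosen after its values were seen, had 3.72, 0.14 and 2.08 in the myeloid-rich tumors, against -2.25, -1.87, -3.35, -2.96 and -1.19 in the myeloid-poor tumors, and 1.37 in tumor 12.2. Its levels in the myeloid-poor tumors are uncertain, with 11 counts there against 368 in the myeloid-rich tumors. SPI1 (ENSDARG00000000767), a transcription factor gene of myeloid and B cells that is on the macrophage list, had 4.03, 1.43 and 3.98 in the myeloid-rich tumors and at most 1.33 in a myeloid-poor tumor, yet 5.98 and 6.31 in low tumors 9.2 and 10.2, where csf1ra had -0.36 and 1.37.

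Early response genes, transcription factors and regulators that cells switch on within minutes of stimulation or handling, had 10 members on the higher side, the most of any list outside the myeloid ones, though not the highest share. Of 28 measured, 26 had a positive log2 fold change with a median of 1.37, against -0.05 over all genes. Of the 28, 0 were called by edgeR, and 10 had an unadjusted p under 0.05 on the higher side and 0 on the lower side (background 4.41% and 1.79%). In 6 genes every myeloid-rich tumor lay above every myeloid-poor tumor (background 2.88%), and DESeq2 called 4 higher (background 0.871%). The list mean was 6.17, 7.07 and 5.64 in the myeloid-rich tumors, against 5.51, 5.12, 2.96, 4.98 and 4.76 in the myeloid-poor tumors, and 3.31, 2.94 and 6.47 in the low tumors 9.2, 10.2 and 12.2. Tumor 14.1.1.1 had the highest value of the 8 high tumors in 20 of the 28 genes, and tumor 7.2.1 the lowest in 21. Without tumor 14.1.1.1 the median was 0.92, and 5 of 29 measured genes had an unadjusted p under 0.05 (724 of 16015 genes outside the myeloid lists on the higher side).

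The orphan nuclear receptor gene NR4A3 (ENSDARG00000055854), induced by antigen receptor signalling in mammalian T cells, had 8.11, 10.15 and 7.07 in the myeloid-rich tumors, against 6.52, 6.47, 5.63, 6.58 and 6.20 in the myeloid-poor tumors (log2 fold change 2.69 ± 0.59, edgeR adjusted p = 0.377). The AP-1 subunit gene fosaa (ENSDARG00000040135) had 4.85, 6.70 and 5.24 in the myeloid-rich tumors, against 4.12, 3.03, 0.83, 1.40 and 2.44 in the myeloid-poor tumors (3.02 ± 0.74, edgeR adjusted p = 0.392). Neither gene overlapped between the sets, although the gap was under 1 log2 unit in both. In NR4A3 tumor 8.3 came close to tumor 15.2, and in fosaa tumor 2.1 came close to tumor 13.1.1. With 1 tumor left out, the log2 fold change ran from 1.36 to 3.15 for NR4A3 and from 2.24 to 3.69 for fosaa. Chosen after their values were seen, the phosphatase gene DUSP2 (ENSDARG00000098108) had 6.58, 6.21 and 4.87 in the myeloid-rich tumors and 4.25, 4.03, -0.03, 1.59 and 2.06 in the myeloid-poor tumors, and the chaperone gene hsp70.1 (ENSDARG00000029688) had 3.18, 4.98 and 3.85 in the myeloid-rich tumors and 1.86, 2.5, 2.5, 0.59 and 2.25 in the myeloid-poor tumors. The heat shock cochaperone gene dnajb1b (ENSDARG00000041394), of the same choice and not on the list, had 7.68, 9.08 and 7.79 in the myeloid-rich tumors and at most 7.03 in a myeloid-poor tumor. JUN (ENSDARG00000043531) did not follow them, with 7.10, 7.80 and 6.82 in the myeloid-rich tumors. It had 7.37, 6.94, 4.77, 9.90 and 6.26 in the myeloid-poor tumors, highest in tumor 8.3. NR4A1 (ENSDARG00000000796) overlapped too, with 10.56, 11.91 and 10.17 in the myeloid-rich tumors, against 9.37, 10.56, 4.11, 7.32 and 8.9 in the myeloid-poor tumors (1.94 ± 1.02, edgeR adjusted p = 0.866). JUN and NR4A1 were likewise chosen after their values were seen. Most genes shown here did not overlap, whereas only 6 of the 28 list genes did not.

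**Figure D4:**
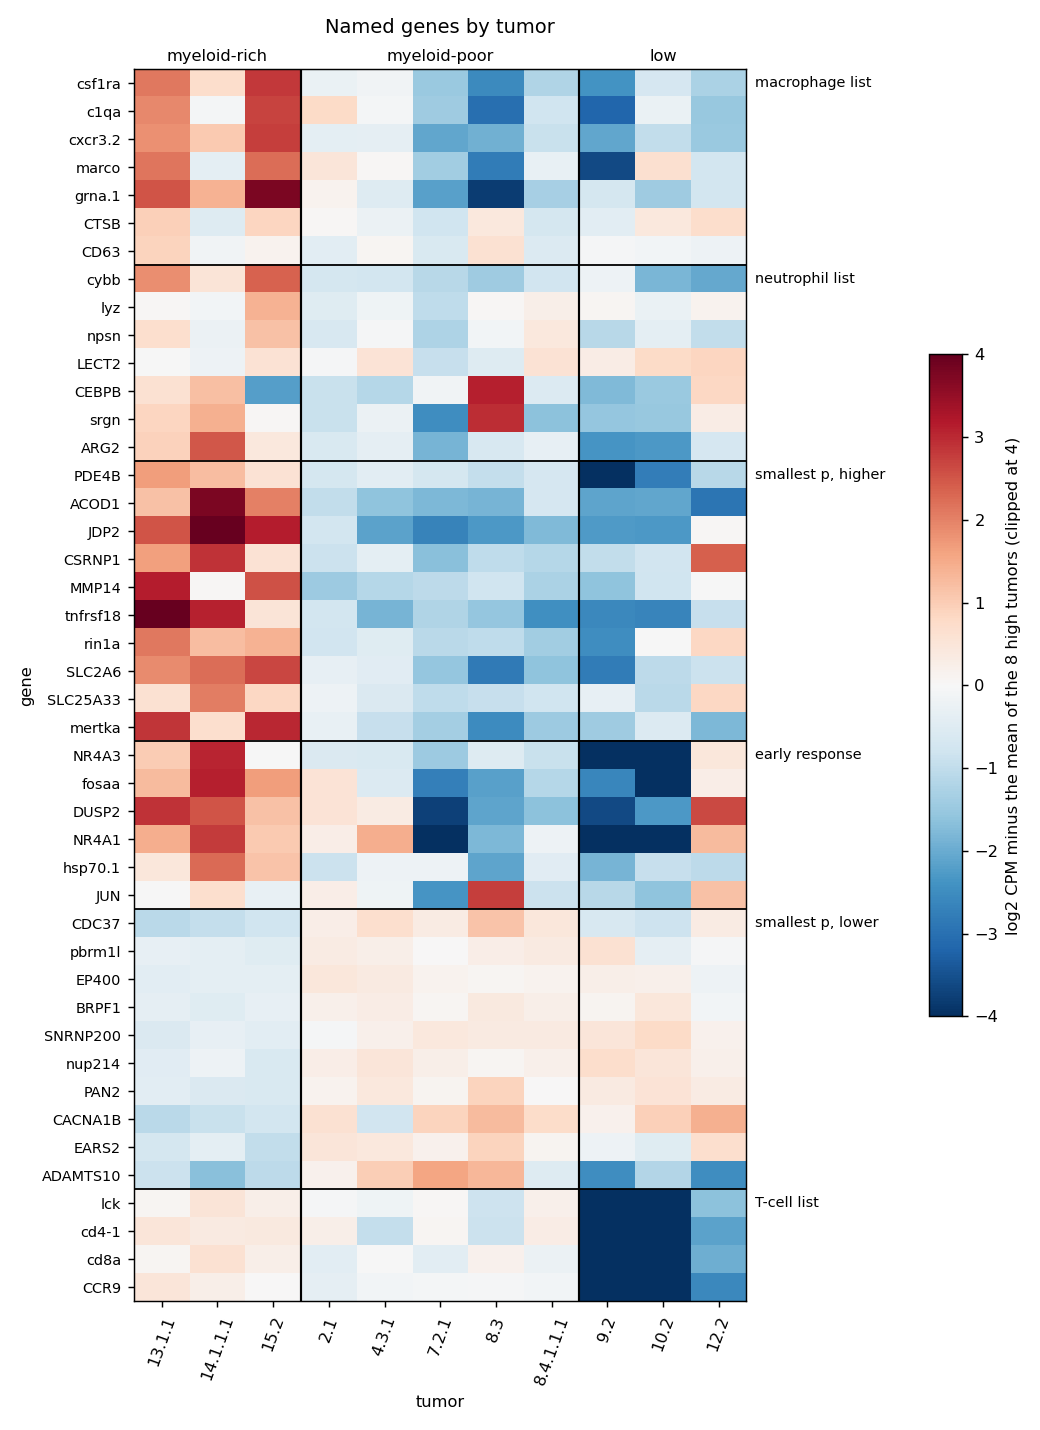
Log2 CPM of named genes (rows) in each tumor (columns; myeloid-rich at the left, then myeloid-poor, then self-renewal low), shown as the difference from the mean of the 8 high tumors and clipped at 4. Most macrophage list genes are red in tumors 13.1.1 and 15.2 and paler in 14.1.1.1, NR4A3 and fosaa are deepest red in 14.1.1.1 (10.15 and 6.70), JUN is so in 8.3 (9.90), and most genes of the lower side differ by small amounts.

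Inflammatory genes were the next group. Of 17 measured, 14 had a positive log2 fold change with a median of 0.87, 0 were called by edgeR, and 5 had an unadjusted p under 0.05 on the higher side and 0 on the lower (background 4.41% and 1.79%). DESeq2 called 3 higher (background 0.871%). Without tumor 8.3 the median was 1.53, and without tumor 14.1.1.1 it was 0.59. The 5 are ACOD1 and MMP14, described above, the leukotriene B4 receptor gene LTB4R (ENSDARG00000032631), the tumor necrosis factor gene tnfb (ENSDARG00000013598) and the interleukin gene il1b. LTB4R had 4.53, 1.38 and 3.47 in the myeloid-rich tumors, against 1.33, 1.44, -1.20, -0.87 and -1.19 in the myeloid-poor tumors, and tumor 14.1.1.1 lay below tumor 4.3.1. For tnfb the levels were 2.33, 2.53 and 1.87 in the myeloid-rich tumors, against 0.64, 0.40, -1.07, 1.39 and -0.22 in the myeloid-poor tumors, and the sets did not overlap. LTB4R, tnfb and il1b were named after their values were seen.

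Some B-cell genes lay on the higher side. Of 19 B-cell genes, 16 had a positive log2 fold change (median 1.42) and 5 had an unadjusted p under 0.05 on the higher side, 0 on the lower (background 4.41% and 1.79%). Without tumor 14.1.1.1 or 13.1.1 the median was 0.92 or 0.90. The list mean was 3.07, 2.41 and 2.58 in the myeloid-rich tumors and between 0.53 and 1.96 in the myeloid-poor tumors. It was 3.75, 4.34 and 3.28 in the low tumors 9.2, 10.2 and 12.2. These means cover the 19 genes that passed the filter on the high tumors, against 24 with all 11 tumors in the fit. One of the 5 was cd22 (ENSDARG00000053005), with 0.57, -0.74 and 0.94 in the myeloid-rich tumors and at most -1.87 in a myeloid-poor tumor (3.79 ± 0.85, edgeR adjusted p = 0.377). The low tumors had -2.07, -2.15 and -2.68. The ratio of cd22 is uncertain, since it rested on 72 counts in the myeloid-rich and 9 in the myeloid-poor tumors. The kinase gene SYK (ENSDARG00000008186), used by B cells and myeloid cells in mammals, had 4.95, 1.38 and 3.01 in the myeloid-rich tumors, against 1.04, 1.01, -1.20, 0.0 and 0.04 in the myeloid-poor tumors (3.51 ± 0.82, edgeR adjusted p = 0.377). SYK had 8.41, 8.13 and 7.71 in the low tumors. Another was irf4b (ENSDARG00000055374), a lymphocyte transcription factor gene chosen after its values were seen, with 6.07, 9.03 and 6.28 in the myeloid-rich tumors, against 5.08, 5.67, 4.12, 6.27 and 4.90 in the myeloid-poor tumors. Of these 3, cd22 and SYK were lowest of the myeloid-rich tumors in 14.1.1.1, and irf4b was highest there. The remaining pair of the 5 were MEF2C, given below, and blk, named after its values were seen.

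Of 6 thrombocyte genes, all 6 had a positive log2 fold change (median 1.46) and 3 had an unadjusted p under 0.05 on the higher side (background 4.41%), but 1 without tumor 13.1.1 and 2 without 15.2, 7.2.1 or 8.4.1.1.1. Without tumor 8.3 the median was 2.23. PLEK (ENSDARG00000104325), a protein kinase C substrate of platelets and leukocytes, had 2.60, 1.71 and 2.79 in the myeloid-rich tumors, against 1.04, 0.58, -1.07, -1.22 and -1.5 in the myeloid-poor tumors (2.61 ± 0.74, edgeR adjusted p = 0.456). The clotting factor gene f13a1b (ENSDARG00000036893), which mammalian macrophages also express, had 2.86, 1.24 and 2.61 in the myeloid-rich tumors, against 1.33, 1.68, 0.09, 0.12 and 0.16 in the myeloid-poor tumors. In f13a1b tumor 14.1.1.1 lay below tumors 2.1 and 4.3.1, and PLEK did not overlap. Of 8 genes of cytotoxic cells, 5 had a positive log2 fold change (median 0.70) and 3 had an unadjusted p under 0.05 on the higher side (background 4.41%), SYK among them. The median was 0.02 without tumor 13.1.1 and 0.06 without 2.1, and 1.4, 1.56 and 1.14 without 14.1.1.1, 15.2 and 8.3. The gene prf1.5 (ENSDARG00000037598), for a perforin, rested on 35 counts in the myeloid-rich and 9 in the myeloid-poor tumors. Erythroid genes did not separate the sets. Of 17 measured, 12 had a positive log2 fold change (median 0.17) and 0 had an unadjusted p under 0.05, and the list mean was 3.54, 1.39 and 1.61 in the myeloid-rich tumors, against 3.09, 2.73, 1.57, 1.17 and 2.46 in the myeloid-poor tumors, highest in tumor 13.1.1, without which the median was -0.92.

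Stromal genes were highest in tumors 13.1.1 and 15.2. All 11 stromal genes had a positive log2 fold change (median 1.31), 1 with an unadjusted p under 0.05 on the higher side (background 4.41%), and the list mean was 1.55, -1.05 and 1.76 in the myeloid-rich tumors, against 0.18, -1.42, -1.42, 0.54 and -0.75 in the myeloid-poor tumors. The collagen gene COL5A2 (ENSDARG00000031678) had 1.45, -1.91 and 1.61 in the myeloid-rich tumors, against -1.03, -2.82, -2.16, -0.46 and -1.5 in the myeloid-poor tumors (2.70 ± 0.96, edgeR adjusted p = 0.614). Tumor 14.1.1.1 lay within the myeloid-poor range in both. Without it the stromal median was 2.39, with 9 of 16 measured genes at an unadjusted p under 0.05 (724 of 16015 genes outside the myeloid lists on the higher side). There were 0 such genes without tumor 13.1.1 or 15.2, and 2 without 2.1, 4.3.1 or 8.3. Of 8 epithelial genes, 7 had a positive log2 fold change (median 1.07) and 2 had an unadjusted p under 0.05 on the higher side (background 4.41%). Without tumor 13.1.1, which was highest in 5 of the 8, the epithelial median was -0.27, with 1 such gene. Without tumor 4.3.1 it was 0.63, and without 8.3 it was 1.64. The keratin gene krt8 (ENSDARG00000058358) had 5.18, 4.16 and 5.33 in the myeloid-rich tumors, against 3.52, 2.80, 1.81, 2.75 and 2.2 in the myeloid-poor tumors (2.26 ± 0.43, edgeR adjusted p = 0.334, called by DESeq2). The part of stromal or epithelial tissue in the other differences was not tested. Endothelial, kidney tubule and liver, muscle or gut genes (7, 6 and 4 measured) had 0 members with an unadjusted p under 0.05, and medians of 0.07, -0.53 and -1.06. These medians changed sign without tumor 13.1.1, 15.2, 4.3.1 or 8.3 (endothelial, -0.30 to -0.02), without 2.1 (kidney, 0.08) and without 8.4.1.1.1 (liver, muscle or gut, 0.24).

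**Figure D5:**
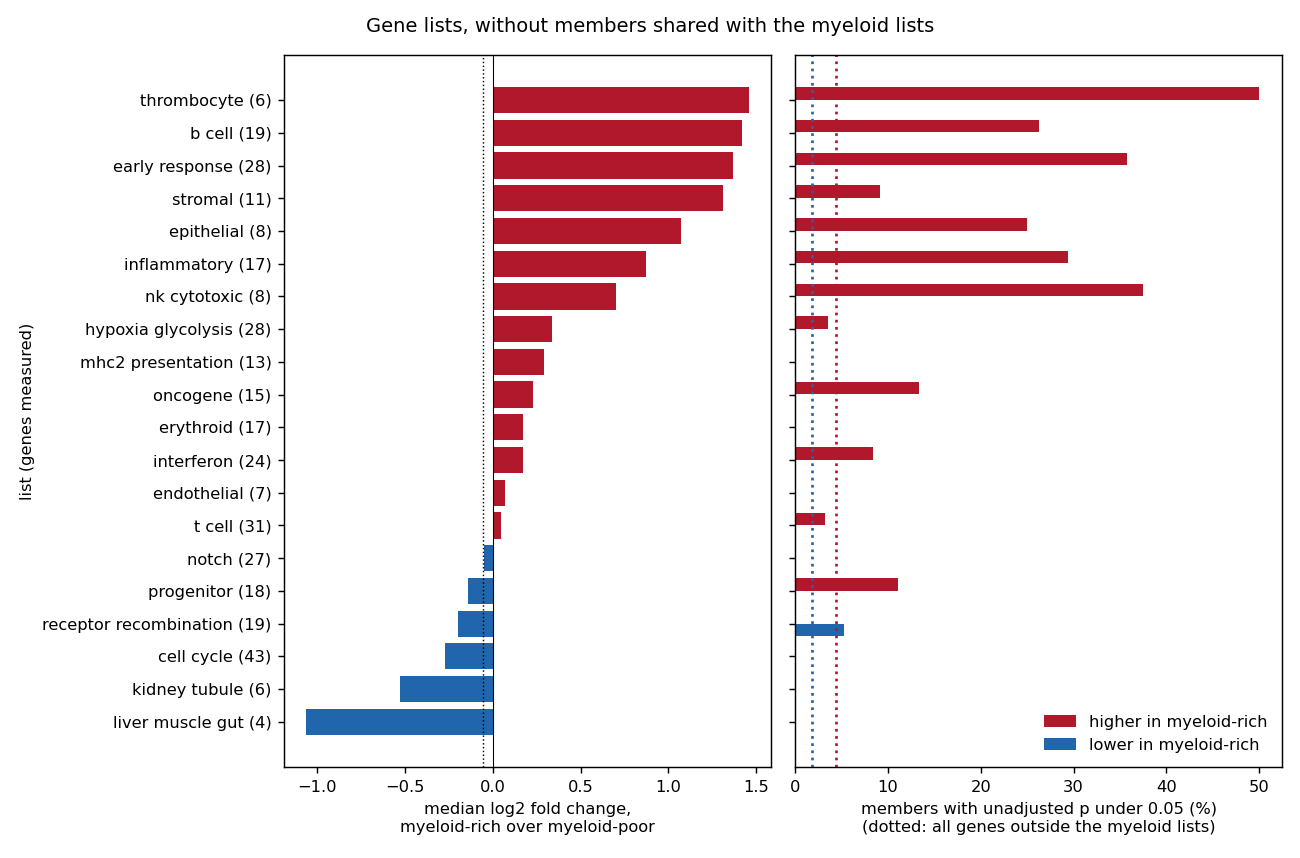
Median log2 fold change, myeloid-rich over myeloid-poor (left, x axis), and percentage of members with an unadjusted p under 0.05 on the higher (red) and lower (blue) side (right, x axis) for 20 gene lists (y axis, number of genes measured in brackets), without members shared with the myeloid lists. Dotted lines mark all genes outside the myeloid lists (median -0.05, 4.41% higher, 1.79% lower); thrombocyte, B-cell and early response genes have the highest medians (1.46, 1.42 and 1.37).

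Few T-cell genes differed between the sets. Of 31 T-cell genes, 16 had a positive log2 fold change (median 0.05), 1 had an unadjusted p under 0.05 on the higher side and 0 on the lower, which are shares near the background, and DESeq2 called 0. Leaving out 1 tumor gave medians from -0.12 without tumor 13.1.1 to 0.26 without 14.1.1.1, and between 0 and 2 genes on the higher side. The kinase gene lck (ENSDARG00000102525) had 9.79, 10.23 and 9.97 in the myeloid-rich tumors, against 9.66, 9.55, 9.76, 8.89 and 9.93 in the myeloid-poor tumors. The coreceptor gene cd8a (ENSDARG00000044797) had 7.86, 8.37 and 8.0 in the myeloid-rich tumors, against 7.34, 7.76, 7.35, 7.94 and 7.52 in the myeloid-poor tumors (0.49 ± 0.21, edgeR adjusted p = 0.767). The sets overlapped in both genes, and the ratio of cd8a was small beside those of the macrophage genes. The thymus homing receptor gene CCR9 (ENSDARG00000099738) and the coreceptor gene cd4-1 (ENSDARG00000070668) did not overlap between the sets. CCR9 had 8.30, 8.04 and 7.83 in the myeloid-rich tumors, against 7.44, 7.69, 7.74, 7.76 and 7.70 in the myeloid-poor tumors. The levels of cd4-1 were 9.20, 9.08 and 9.11 in the myeloid-rich tumors, against 8.94, 7.75, 8.78, 7.86 and 9.02 in the myeloid-poor tumors. Their log2 fold changes were 0.40 ± 0.18 (edgeR adjusted p = 0.781) and 0.56 ± 0.32 (edgeR adjusted p = 0.881). The transcription factor gene TCF7 (ENSDARG00000038672) went the other way (-0.83 ± 0.57, edgeR adjusted p = 0.926) and overlapped. It had 8.5, 7.1 and 7.3 in the myeloid-rich tumors, against 8.46, 8.04, 8.11, 9.78 and 7.39 in the myeloid-poor tumors. The genes lck, cd4-1 and TCF7 were chosen after their values were seen. Most T-cell genes given here lean higher, whereas only 16 of the 31 list genes did.

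Outside the myeloid lists, the lists of antigen receptor recombination, progenitor, oncogene and NOTCH genes gave 0 to 2 members each on either side. The background was 4.41% of genes on the higher and 1.79% on the lower side. The shares of progenitor genes and oncogenes on the higher side were above it, on 2 genes each. The medians below were near 0 and some changed sign with the tumor left out. Of 19 recombination genes (median -0.20, and 0.14 with limma-voom), 0 had an unadjusted p under 0.05 on the higher side and 1 on the lower, tcf3a (ENSDARG00000005915), an E-protein transcription factor gene, with 7.06, 7.01 and 6.96 in the myeloid-rich tumors, against 7.31, 7.90, 7.59, 7.24 and 7.28 in the myeloid-poor tumors (-0.47 ± 0.21, edgeR adjusted p = 0.766). The recombinase gene RAG2 (ENSDARG00000052121), chosen after its values were seen, overlapped, with 8.90, 9.63 and 8.71 in the myeloid-rich tumors and between 7.65 and 9.34 in the myeloid-poor tumors. Of 18 progenitor genes, 2 were on the higher side, HLF (ENSDARG00000061011) and LDB1 (ENSDARG00000010137), with a list median of -0.14 (0.02 without tumor 8.3). Of 15 oncogenes outside the myeloid lists, 2 were on the higher side, MYC (ENSDARG00000007241) and MEF2C (ENSDARG00000009418), with a list median of 0.23. With SPI1, which is on both lists, 3 of 16 oncogenes were on the higher side, and 6 without tumor 8.3 (834 of 14874 genes outside the myeloid lists). MYC had 4.77, 4.83 and 3.29 in the myeloid-rich tumors, against 3.34, 3.82, 1.62, 2.48 and 2.57 in the myeloid-poor tumors (1.5 ± 0.53, edgeR adjusted p = 0.610). MEF2C, known from muscle, lymphoid and myeloid cells, had 1.45, -0.10 and 1.85 in the myeloid-rich tumors and at most 0.02 in a myeloid-poor tumor. Of 27 NOTCH genes, 0 were on either side (median -0.05, and 0.14 without tumor 15.2), but 2 on the higher and 1 on the lower side without tumor 14.1.1.1.

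Among interferon, antigen presentation, glycolysis and cell cycle genes, some counts rested on 1 tumor (background 4.41% higher and 1.79% lower). Of 24 interferon genes, 2 had an unadjusted p under 0.05 on the higher side (median 0.17): mxc (ENSDARG00000024789), an antiviral GTPase gene, and IRF7 (ENSDARG00000045661), a transcription factor gene with 5.48, 8.26 and 4.18 in the myeloid-rich tumors and 3.92, 5.94, 2.91, 5.15 and 4.36 in the myeloid-poor tumors. The log2 fold change of IRF7 was 2.14, and ran from 0.15 to 2.65 with 1 tumor left out. Without tumor 4.3.1, the highest in 10 of the 24, the interferon median was 1.29 with 7 genes on the higher side (654 of 14947 genes outside the myeloid lists). With limma-voom the median was 1.15. Without tumor 2.1 or 8.4.1.1.1 there were 0 genes on the higher side, and without 13.1.1 or 7.2.1 the median was -0.02 or -0.01. Tumor 7.2.1 was the lowest of the 8 tumors in 17 of the 24 interferon genes. It was also lowest in 12 of 15 antigen presentation genes, of which the 13 outside the macrophage list had 0 on either side (median 0.29). Of 28 genes of hypoxia and glycolysis, 1 was on the higher side (median 0.34), against 7 without tumor 7.2.1 (median 0.55, beside 581 of 14865 genes outside the myeloid lists). It was ADM (ENSDARG00000015263), a vasoactive peptide gene with 2.45, 0.03 and 2.48 in the myeloid-rich tumors, against -1.91, -0.33, -1.20, -1.22 and -0.08 in the myeloid-poor tumors (3.05 ± 0.73, edgeR adjusted p = 0.385). Of 43 cell cycle genes, 8 had a positive log2 fold change (median -0.27, and 0.04 with limma-voom) and 0 were on either side, but 1 on the higher and 2 on the lower side without tumor 8.3. The cell cycle list mean was 4.25, 4.94 and 4.0 in the myeloid-rich tumors, against 3.92, 5.34, 5.26, 2.48 and 4.75 in the myeloid-poor tumors, and tumor 8.3 was the lowest in 34 of the 43 genes.

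Most ratios on the lower side were small. Of the 10 genes named there by the same rule, none was called by edgeR, and 9 were called by DESeq2. The exception was PAN2 (ENSDARG00000074675), a gene of mRNA tail removal. Over genes outside the myeloid lists, DESeq2 called 0.152% lower, and 2.06% lay wholly below. As on the higher side, the pick by p favours such calls, separated sets and a small spread within a set. CDC37 (ENSDARG00000099301), a cochaperone of HSP90 that delivers kinases to it, had 3.51, 3.64 and 3.80 in the myeloid-rich tumors, against 4.86, 5.28, 4.91, 5.74 and 5.04 in the myeloid-poor tumors (-1.56 ± 0.27, edgeR adjusted p = 0.334). The chromatin remodeler gene EP400 (ENSDARG00000100965) had 8.13, 8.16 and 8.16 in the myeloid-rich tumors, against 9.02, 8.93, 8.71, 8.65 and 8.71 in the myeloid-poor tumors (-0.66 ± 0.17, edgeR adjusted p = 0.412). In both genes the myeloid-rich tumors held nearly one level and lay below all myeloid-poor tumors. Other genes of the chromatin and RNA machinery among the 10 were BRPF1 (ENSDARG00000103665), a scaffold of a histone acetyltransferase (-0.64 ± 0.17), pbrm1l (ENSDARG00000077038), of the bromodomain remodeler family (-0.65 ± 0.17), SNRNP200 (ENSDARG00000077536), a spliceosome helicase (-0.70 ± 0.19), and nup214 (ENSDARG00000016212), a nuclear pore protein (-0.67 ± 0.18). The edgeR adjusted p was 0.41 for pbrm1l, 0.412 for BRPF1 and SNRNP200, and 0.414 for nup214. No list of chromatin or RNA machinery genes was among the 23, so their share was not measured beside that over all genes. Of genes on the lower side, 60.5% had a mean level of 5 log2 CPM or more, against 31% outside the myeloid lists. The mitochondrial tRNA synthetase gene EARS2 (ENSDARG00000103099), the extracellular protease gene ADAMTS10 (ENSDARG00000075188) and the calcium channel gene CACNA1B (ENSDARG00000021735) had ratios of -1.13 ± 0.32, -2.12 ± 0.60 and -1.60 ± 0.44 on the log2 scale, and only CACNA1B of the 10 overlapped between the sets. The phospholipase gene PLCG1 (ENSDARG00000038442), which acts downstream of the T-cell receptor (named after its values were seen), had 9.96, 9.30 and 9.81 in the myeloid-rich tumors, against 10.40, 10.37, 10.59, 10.66 and 10.28 in the myeloid-poor tumors (-0.75 ± 0.22, edgeR adjusted p = 0.483). The sets did not overlap in PLCG1.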

How the data were processed

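The authors deposited raw counts per gene for each of the 20 libraries, as whole numbers with no normalization. The tools listed per the submitters' processing notes are STAR, featureCounts and Picard, on build GRCz10; which version, annotation or strand option was used is not given in the sources used here, so overlapping genes cannot be told apart. Libraries of a tumor were summed. The 2 libraries of a tumor differed by more than sampling noise. Chi-square per degree of freedom ran from 2.307 (8.3) to 13.1 (13.1.1) in the high tumors, with 7.831 in 15.2. In the low tumors it ran from 1.309 (9.2) to 31.289 (12.2). Tests used edgeR 4.0.16 under R 4.3.3 (two-sided glmQLFTest after filterByExpr and TMM, Benjamini-Hochberg), with DESeq2 1.42.0 and limma 3.58.1 as alternatives, on 15221 genes. Log2 CPM used a prior count of 2, and SE are from the F statistic. Levels in high tumors were scaled over the 8 high tumors and levels in low tumors over all 11 tumors. Both used only genes that passed the filter on the high tumors. Python 3.11.15, pandas 2.3.3 and matplotlib 3.10.9 made tables and plots. Of 613 list entries, 432 matched a symbol, 11 an older symbol, 112 a capital symbol shared by paralogues, 55 none, and 3 wrong matches were left out; paralogues are uncertain. The tumor sets, the 23 lists and the tests were chosen with earlier results of these data known. Genes of the neutrophil and macrophage lists chose the sets and are not counted. Genes of the mast cell or eosinophil list, the third myeloid list, are not counted either. Genes were picked by smallest p (10 a side, level in the higher set 1 log2 CPM or more, no clone or locus names such as zgc: or zmp:), 2 members a list, and the 6 most abundant members of both phagocyte lists beside lyz, marco, SPI1 and MPEG1. Not all genes picked in this way are given above. Any other gene is marked in the text as named after seeing its values. Of 5 mast cell or eosinophil genes measured, 4 had a positive log2 fold change. Their mean in tumor 14.1.1.1 (-0.09) lay below myeloid-poor tumors 4.3.1 (0.53) and 2.1 (-0.01). Sequences are not shown here.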

Additional observations from a re-analysis of the deposited data

Results flagged for a closer look

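Among the 5 myeloid-poor tumors, 1 tumor stood apart from the other 4 by Dixon's criterion (a gap of more than 0.71 of the range) in 7 of 117 values looked at, 2 of 23 lists and 5 of 94 genes. Chance gives about 1 in 20 groups.

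Tumor 8.3 had a neutrophil list mean of 2.929 log2 CPM, against 2.11 to 2.30 in the others, and a level of CEBPB (ENSDARG00000042725) of 10.61, against 6.34 to 7.34. Tumor 4.3.1 had the lowest T-cell list mean, 5.608, against 5.86 to 5.96, and the highest level of the kidney gene wt1b (ENSDARG00000007990), -0.59, against -2.25 to -1.90. Tumor 7.2.1 had the lowest level of ARG2 (ENSDARG00000039269), 5.93, against 7.17 to 7.48. Tumor 2.1 had the lowest CCR9 (ENSDARG00000099738), 7.44, against 7.69 to 7.76, and the highest stab1 (ENSDARG00000076484), an endothelial and macrophage scavenger receptor gene, 1.16, against -0.95 to -0.50.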

How the results depend on the processing

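With edgeR, 0 genes were called in either direction under every scaling, filter, threshold, thinning and tumor left out (the smallest adjusted p was 0.0567, without tumor 14.1.1.1 or 8.3). DESeq2 called 132 higher and 23 lower, and 11 list members higher against 0 with edgeR; the cause was not tested. Libraries as units with the tumor as a block gave 1 higher gene, PDE4B, and 0 lower; with the replicate number as a replicate block as well, 0 and 0. Replicate numbers mark libraries of a tumor and do not pair tumors. Of 72 named genes outside the myeloid lists, 3 changed sign: SLC4A1 (2.62; from -2.82 without tumor 13.1.1 to 3.2 without 15.2), SLC25A37 (0.51; from -0.05 without 14.1.1.1 to 0.75 without 15.2) and JUN (-0.77; 0.19 with limma-voom, 0.21 with libraries as units with and without the replicate block, from -1.12 without 14.1.1.1 to 0.69 without 8.3). The lowest myeloid-rich minus the highest myeloid-poor level was 0.16 for the macrophage and 0.13 for the neutrophil list as mean log2 CPM, and -0.14 and -1.95 as log2 of summed CPM. Genes at an unadjusted p under 0.05 were 1244 higher and 367 lower of 25726 tested without a filter on low counts. With at least 10 counts in every tumor they were 390 and 177 of 11674 tested, against 668 and 271 of 15149 in the main fit. Tumors 14.1.1.1 and 8.4.1.1.1, with 1 library each, had the lowest totals.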
